A study of Homo sapiens with 18 samples.

Results

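LPP, the gene whose intron holds the hairpin of miR-28, was followed as 1 gene of 15358 in a gene table of MCF10A cells and of 15257 in a gene table of hTERT RPE-1 cells. It was found in each table by its symbol, as the host of a transfected microRNA and with earlier results of these data known, to ask whether a mimic of the microRNA encoded inside a gene goes with a different level of the host transcript. The polyA+ RNA of 18 libraries was sequenced, 3 for each of 3 treatments in each cell line. MCF10A is an immortalized, non-tumorigenic human breast epithelial line, and hTERT RPE-1 is a human retinal pigment epithelial line immortalized with telomerase. Cells were transfected for 72 h with 30 nM of a non-targeting siRNA (siNT), of a hsa-miR-28-5p mimic (group miR-28) or of a hsa-miR-708-5p mimic (group miR-708). Replicate numbers run from 7 to 9 for MCF10A and from 1 to 3 for hTERT RPE-1. All groups thus carried a transfected small RNA duplex, and each cell type is represented by 1 line.

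LPP (LIM domain containing preferred translocation partner in lipoma) encodes a scaffold of the zyxin family that sits at focal adhesions and cell-cell contacts and can enter the nucleus. Its proline-rich part binds actin regulators of the Ena/VASP family and alpha-actinin, and its LIM domains close the protein. A microRNA inside an intron is usually made from the transcript of its host, and once loaded on an Argonaute protein it represses messages that pair with its seed, the bases near its 5′ end. The mimics are members of the MIR-28 family and share a seed, and the gene that hosts MIR708 is TENM4, a transmembrane teneurin.

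On the hg38 build with the GENCODE annotation, LPP lies on the plus strand of chromosome 3 from 188153284 to 188890671, a span of 737.4 kb. Its canonical transcript has 12 exons and 18316 nt, begins its coding sequence of 612 codons in exon 4, and ends in a 3′ UTR of 16192 nt (188874480 to 188890671), which is 88.4% of the transcript and the 29th longest of 19515 annotated ones. The MIR28 hairpin (188688781 to 188688866) lies in intron 7, which is 98422 nt long, 78936 nt after exon 7 and 19400 nt before exon 8. An antisense gene, LPP-AS2 (188151206 to 188154069), overlaps the start of the gene on the minus strand.

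The seed of the transfected miRNA and the sites it could pair with are shown first, because whether the host message itself carries a seed match bears on how its level is read. The mature sequence is from RefSeq, with bases 2 to 8 in capitals.
hsa-miR-708-5p: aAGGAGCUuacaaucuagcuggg

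The match to bases 2 to 7, GCTCCT, was searched on the transcript strand and occurred 0 times in the 18316 nt of the canonical LPP transcript. Of 714 canonical coding transcripts of at least 10000 nt, 32 (4.48%) held no such match, and of 174 3′ UTRs of at least 10000 nt, 13 (7.47%) held none. The letters of the weaker match to bases 3 to 8, AGCTCC, occurred 6 times, of which 3 were in the 3′ UTR, and 90.2% of the 3′ UTRs of at least 10000 nt held this match.

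Among the 23 annotated LPP transcripts, 2 shorter ones did hold a match to bases 2 to 7. LPP-205 (460 nt, 5 exons) holds it in its 5′ UTR, from an exon inside intron 1 of the canonical form, and LPP-208 (5835 nt, 7 exons) in its 3′ UTR, from an exon inside intron 8. Both are shown with the matched bases in capitals, the former paired to bases 2 to 8 and the latter to bases 2 to 7 with an A opposite base 1. A table of 1 value a gene does not tell these transcripts apart. No match says only that these letters are not in this message, and a match is not a measured binding site.
LPP-205, chr3:188208261-188208287: ttgctctcagAGCTCCTtgggtcccct
LPP-208, chr3:188710134-188710160: tgtcttttttGCTCCTAtatgggaata

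In MCF10A cells neither mimic gave an LPP level that passed the test. The normalised read count of LPP was 6265, 4667 and 4624 in siNT replicates 7, 8 and 9, a mean of 5185 ± 935.6 (SD, n = 3). With miR-28 it was 6815, 5216 and 4669, a mean of 5567 ± 1115, and with miR-708 it was 4126, 4704 and 4466, a mean of 4432 ± 290.5. Replicate 7 was the highest library of both the siNT and the miR-28 group, and the values of each mimic overlapped those of siNT. Means were thus 107% of siNT for miR-28 and 85.5% for miR-708, in the order miR-708, siNT, miR-28, and no neighbours in that order differed beyond their spread.

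The fitted log2 fold change of LPP against siNT in MCF10A was 0.10 (SE 0.15, 95% interval -0.23 to 0.43) for miR-28, with an adjusted p of 0.672 by limma with Benjamini-Hochberg adjustment over 14726 genes. For miR-708 it was -0.21 (-0.55 to 0.12, adjusted p 0.307), and between the mimics, miR-708 against miR-28, it was -0.31 (-0.65 to 0.02, adjusted p 0.347). These comparisons called 22.7% (10.7% higher, 12.0% lower), 32.8% (15.5% higher, 17.3% lower) and 1.55% of the genes tested. The exact two-sided permutation test over libraries gave p = 0.5, p = 0.3 and p = 0.2, where 0.1 is the smallest value that 3 against 3 allows. By replicate, LPP was at 108.8%, 111.8% and 101% of the siNT library of the same number with miR-28, and at 65.9%, 100.8% and 96.6% with miR-708. The ratio of 65.9% came from replicate 7, whose siNT library was the highest, and without siNT replicate 7 the log2 fold change for miR-708 was -0.07.

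In hTERT RPE-1 cells LPP fell with miR-708 to 37.8% of its siNT mean, while the lower mean with miR-28, 76.5% of siNT, did not pass the test. The normalised read count was 14204, 13685 and 16070 in siNT replicates 1, 2 and 3 (14653 ± 1254). It was 13174, 8304 and 12152 with miR-28 (11210 ± 2568) and 5656, 5046 and 5934 with miR-708 (5545 ± 454.2). All 3 libraries of miR-28 lay below all of siNT, and all 3 of miR-708 lay below all of both other groups, so the order of the levels was miR-708, miR-28, siNT. In bulk RNA of this kind, fewer cells of a type and less RNA per cell cannot be told apart.

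**Figure D1:**
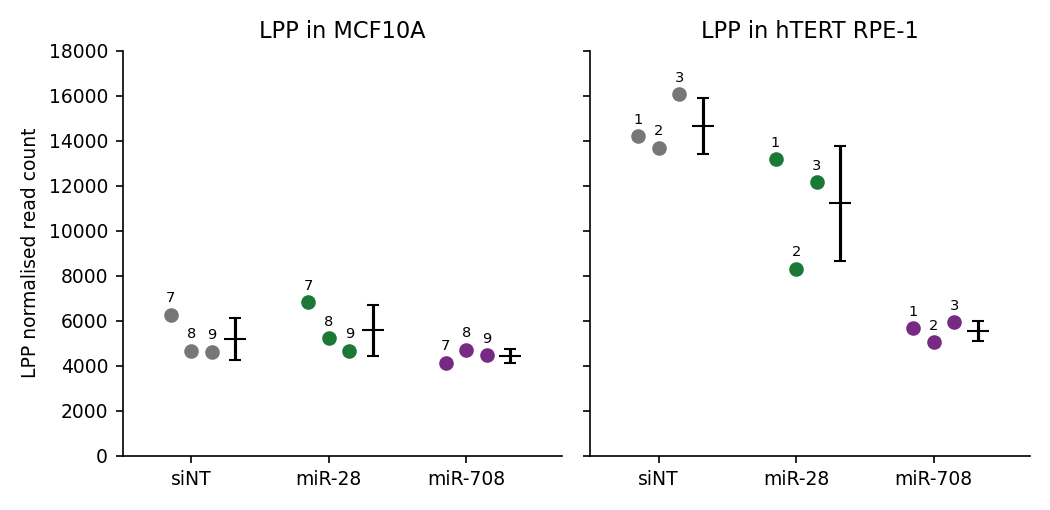
Normalised read count of LPP (y axis, linear from 0) in each library of siNT, miR-28 and miR-708 (x axis), with MCF10A left and hTERT RPE-1 right. Points are libraries with their replicate number and bars are the mean ± SD of 3. In hTERT RPE-1 the miR-708 libraries sit between 5046 and 5934, below every siNT and miR-28 library, whereas in MCF10A the values of the groups overlap.

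The log2 fold change of LPP for miR-708 against siNT in hTERT RPE-1 was -1.40 (SE 0.157, 95% interval -1.748 to -1.055), with a limma adjusted p of 2.67e-05 over 14527 genes. This comparison called 62.1% of the genes tested, 30.9% of all tested being higher and 31.2% lower, and 34.9% of genes had groups that did not overlap in the lower direction. LPP was well down this broad distribution, since 6.6% of the genes tested had a lower log2 fold change. Each replicate gave nearly the same ratio, with LPP at 39.8%, 36.9% and 36.9% of the siNT library of the same number. The exact two-sided permutation p was 0.1, the smallest the design allows.

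For miR-28, the family member whose hairpin LPP hosts, the log2 fold change in hTERT RPE-1 was -0.41 (SE 0.157, 95% interval -0.758 to -0.064). Its unadjusted p was 0.0245 and its adjusted p 0.0519 by limma with Benjamini-Hochberg adjustment, in a comparison that called 46.8% of genes (23.3% higher, 23.5% lower) and in which 27.5% of genes had groups that did not overlap in the lower direction. With the replicate number as a block in the fit, LPP did pass (limma adjusted p 0.0166). The ratio to the siNT library of the same number varied widely, 92.7%, 60.7% and 75.6%, and 1 library weighed on the call. Replicate 1 of miR-28 had the highest LPP of its group, and in it ribosomal RNA genes took 15.1% of all values against 4.23% to 7.2% in the other 8 libraries of the line. RTP4, an interferon-inducible gene upstream of LPP, also stood at 14.18 in that library against 632.4 and 337.8 in replicates 2 and 3. Other genes did not set that library apart. TNS3 was at 4390, with 4905 and 4638 in replicates 2 and 3 and 22753 to 26499 in siNT. TENM4 was at 3683, with 3511 and 3163 in replicates 2 and 3 and 1755 to 2042 in siNT. Without replicate 1 of miR-28, LPP gave a log2 fold change of -0.54 (limma adjusted p = 0.0129). Without replicate 2, the lowest, it gave -0.21 (limma adjusted p = 0.146). The part of these library differences in the result was not tested.

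The mimics differed in their LPP level in hTERT RPE-1. With miR-708, LPP was at 42.9%, 60.8% and 48.8% of the miR-28 library of the same number, a log2 fold change of -0.99 (95% interval -1.338 to -0.644, limma adjusted p 0.00257) in a comparison that called 21.2% of genes, 11.4% of all tested being lower. The groups did not overlap in this direction for 20.2% of genes. In MCF10A the same comparison of mimics did not pass the test, as given above.

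The response of LPP was also set against itself between the lines, using only fold changes because each table was normalized apart. For miR-708 the log2 fold change in hTERT RPE-1 was lower by 1.19 than in MCF10A (difference -1.19, SE 0.219, 95% interval -1.641 to -0.734, adjusted p 0.000207 over 13339 genes). Such a difference was called for 39.8% of the genes tested in both lines, 19.6% being lower in hTERT RPE-1. For miR-28 the difference was -0.51 (-0.963 to -0.056) with an unadjusted p of 0.0294 from the limma estimates and an adjusted p of 0.0951, so it did not pass the test, in a comparison that called 23.4% of genes, 11.3% lower in hTERT RPE-1. With the replicate number as a block this difference passed (-0.509, limma adjusted p 0.0297). Deviations of same-numbered siNT and miR-28 libraries from their group means correlated at 0.11 to 0.26 in MCF10A and at 0.02 to 0.04 in hTERT RPE-1. Per kilobase of transcript, LPP in siNT stood above 82.4% of 12746 tested genes with an annotated transcript length in hTERT RPE-1 and above 58.8% of 12944 in MCF10A, and with miR-708 its place in hTERT RPE-1 was 58.8% as well.

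**Figure D2:**
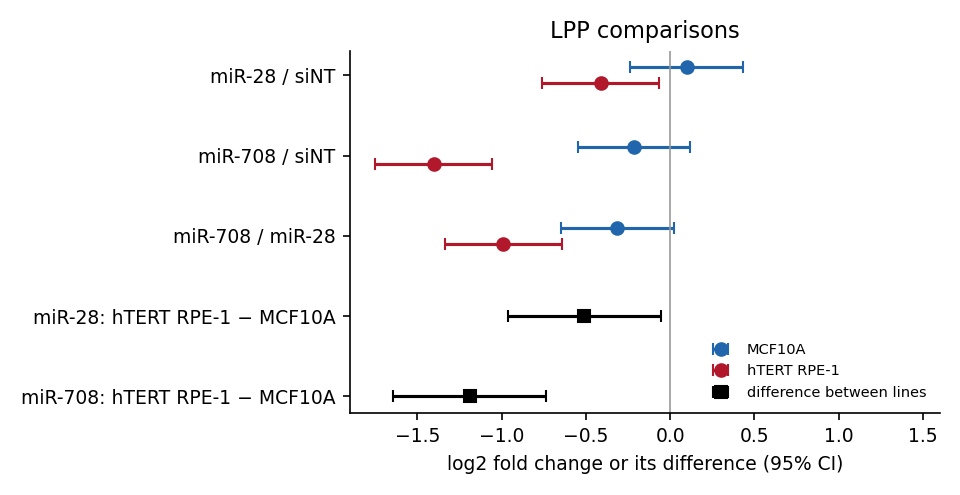
Log2 fold change of LPP (x axis, points with 95% intervals from limma) in the 3 comparisons of treatments, blue for MCF10A and red for hTERT RPE-1, and below them, in black squares, the difference between the lines (hTERT RPE-1 minus MCF10A). All 3 MCF10A intervals cross 0, and the lowest point is miR-708 in hTERT RPE-1 at -1.40.

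LPP-AS2, the antisense gene at the start of LPP, was scarce and did not pass the test in any comparison with siNT. It had 16.76 to 30.13 in the siNT libraries of MCF10A and 104.6 to 120.8 in those of hTERT RPE-1. Its log2 fold changes were 0.46 (miR-28) and 0.71 (miR-708) for MCF10A and -0.29 and -0.44 for hTERT RPE-1. The counting is not stated to use strand, so reads from the overlap with LPP cannot be told apart.

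The other host genes of the MIR-28 family, TENM4 and PTK2, rose in hTERT RPE-1 and passed in no comparison with siNT in MCF10A. Of all genes tested in hTERT RPE-1, 23.3% were called higher with miR-28 and 30.9% with miR-708. In MCF10A 22.7% and 32.8% of all genes passed in either direction. TENM4, host of MIR708, rose in hTERT RPE-1 with both mimics, from 2042, 1755 and 1765 in siNT to 3683, 3511 and 3163 with miR-28 and to 3552, 3467 and 3244 with miR-708. The groups did not overlap, as for 26.9% and 34.3% of genes in the higher direction, with log2 fold changes of 0.90 (limma adjusted p 3.41e-05) and 0.89 (1.61e-05). In MCF10A TENM4 gave -0.27 and -0.08 (adjusted p 0.412 and 0.818), the latter above 0 with library size scaling. PTK2, focal adhesion kinase and host of MIR151A, rose by 0.25 and 0.34 on the log2 scale in hTERT RPE-1 (adjusted p 0.0416 and 0.00802), with 0.11 and 0.18 in MCF10A (adjusted p 0.451 and 0.21). In hTERT RPE-1, then, LPP was lower with miR-708 and TENM4 higher with both mimics.

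Of the zyxin family, the closest relatives of LPP, 5 of 6 fell with miR-708 in hTERT RPE-1 (31.2% of all genes tested) and 4 of 6 with miR-28 (23.5%). ZYX, zyxin itself, went from 10850, 10607 and 8556 in siNT to 4127, 3330 and 4061 with miR-708, a log2 fold change of -1.38 (limma adjusted p 3.33e-05), close in size to that of LPP. With miR-28 it was 6990, 5178 and 7948 (-0.59, adjusted p 0.0114). In MCF10A ZYX stayed between 1651 and 2006 in all 9 libraries, with log2 fold changes of -0.01 and 0.05 that did not pass the test and whose signs turned under other settings.

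AJUBA, a LIM protein of adherens junctions and a Hippo pathway scaffold, and FBLIM1 (migfilin), which links filamin to integrin adhesions, fell in all 4 comparisons with siNT. AJUBA gave -0.71 and -1.001 in MCF10A, then -1.28 and -1.45 in hTERT RPE-1, and FBLIM1 gave -0.49, -0.69, -1.22 and -2.547. The lines differed for FBLIM1 by -1.86 with miR-708. LIMD1, also a Hippo scaffold, fell in 3 of the 4, by 0.393, 0.866 and 0.35, all but miR-28 in MCF10A, where it was -0.34 (adjusted p 0.0514). WTIP rose with miR-28 in MCF10A by 1.03 and fell with miR-708 in hTERT RPE-1 by 0.445. TRIP6 passed in none of the 4, with log2 fold changes of -0.03 and 0.07 in MCF10A, against 0.10 and 0.16 in hTERT RPE-1. The family's median log2 fold change was -0.181 and -0.169 in MCF10A, against -0.729 and -0.913 in hTERT RPE-1, beside medians of all genes within 0.0061 of 0.

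The messages of most proteins that bind LPP fell in hTERT RPE-1, and most did not pass the test in MCF10A. The difference between lines was not tested for them. In hTERT RPE-1, 7 of 8 fell with miR-708 and 5 of 8 with miR-28, where 31.2% and 23.5% of all genes were lower (median log2 fold changes -1.346 and -0.67), and SCRIB, a polarity scaffold, rose with both, by 0.61 and 0.62. VASP, an actin polymerase that LPP recruits, showed the largest fall of the list, from 6198, 5891 and 4730 in siNT to 1916, 1736 and 1867 with miR-28 and 1183, 1032 and 1001 with miR-708. Its log2 fold changes were -1.60 and -2.38 (limma adjusted p 3.13e-06 and 1.22e-07). In MCF10A VASP was the 1 partner that fell, by 0.675 and 0.829, SCRIB and the phosphatase subunit PPP2R3A rose with miR-28 by 0.377 and 0.603, and the rest did not pass the test. Most of all genes tested in MCF10A did not pass either. There 12.0% were lower and 10.7% higher with miR-28, and 17.3% and 15.5% with miR-708.

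**Figure D3:**
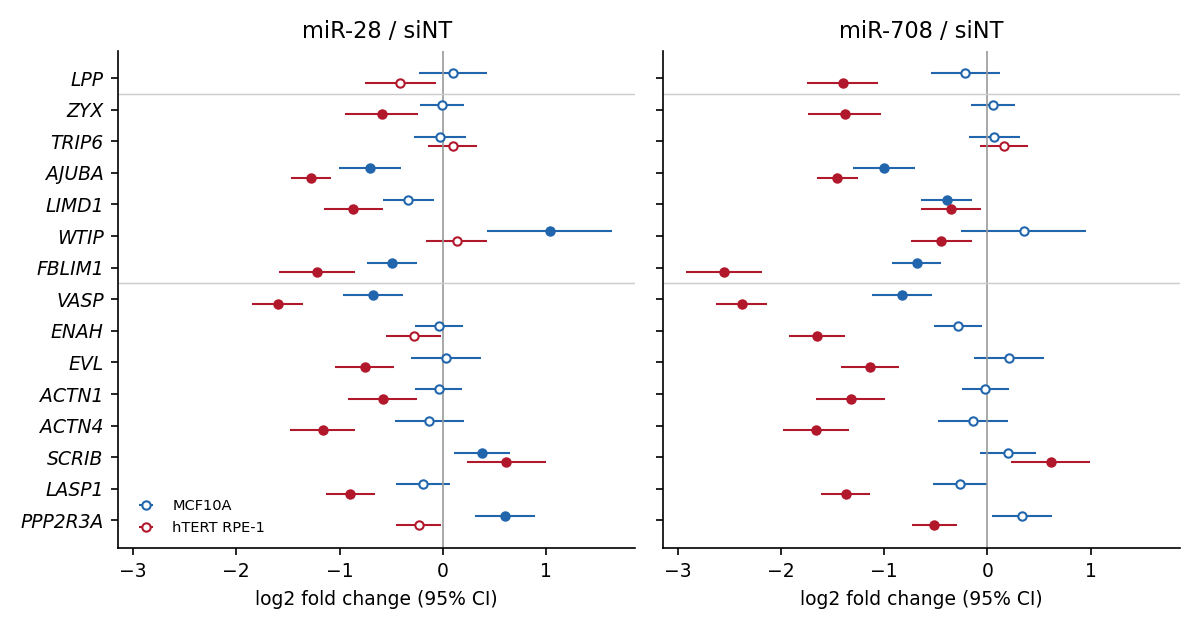
Log2 fold change against siNT (x axis, 95% intervals from limma) of LPP, the 6 other zyxin family genes and 8 LPP binding partners (y axis, from top to bottom, separated by lines), for miR-28 left and miR-708 right. Blue is MCF10A, red is hTERT RPE-1 and filled points passed an adjusted p of 0.05. With miR-708 in hTERT RPE-1, LPP and ZYX sit side by side at -1.40 and -1.38, and VASP is at -2.38.

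Among 12 core focal adhesion genes, 9 fell and 1 (PTK2) rose with miR-708 in hTERT RPE-1, a median log2 fold change of -0.91, where 31.2% of all genes were lower and 30.9% higher. With miR-28 7 fell and 4 rose (PXN, LIMS1, PTK2 and TES), a median of -0.328, beside 23.5% lower and 23.3% higher among all genes. TNS3, a tensin that ties integrins to actin, fell furthest, to 18.7% and 12% of its siNT mean with miR-28 and miR-708, and TLN1, the talin that activates integrins, fell to 43.2% and 24.5%. In MCF10A 1 of 12 fell with miR-28 (TNS3), and with miR-708 2 fell (TLN1 and TNS3) and 1 rose (LIMS1). These counts were near or below the shares of all genes, 12.0% lower with miR-28, and 17.3% lower and 15.5% higher with miR-708.

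The actin-responsive targets of SRF and its cofactors of the MRTF family, a list of 14, mostly fell in hTERT RPE-1 and went both ways in MCF10A. With miR-708 in hTERT RPE-1, 13 of 14 fell and 0 rose, with a median of -1.644 beside -1.402 for LPP itself, and with miR-28 9 of 14 fell (median -0.632). The shares of all genes that were lower were 31.2% and 23.5%. Of the 13 tested in MCF10A, 3 rose and 2 fell with miR-28, and 4 rose and 2 fell with miR-708 (medians 0.053 and 0.177), where 10.7% and 15.5% of all genes were higher and 12.0% and 17.3% lower. ACTA2, smooth muscle actin, is an example, at 47528, 59612 and 17973 in the siNT libraries of hTERT RPE-1 and 2307, 2117 and 1964 with miR-708, and at 262.7 ± 15.44 and 573.4 ± 91.71 in MCF10A. TAGLN and MYL9 likewise rose in MCF10A (by 1.08 and 1.25 with miR-28, 0.96 and 1.15 with miR-708) from low levels, 77.14 and 31.63 in siNT. In hTERT RPE-1 both fell, to a log2 fold change of -0.825 and -0.775 with miR-28 and of -3.313 and -2.54 with miR-708. SRF and CNN2 fell in all 4 comparisons. No test was run over any of these lists.

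**Figure D4:**
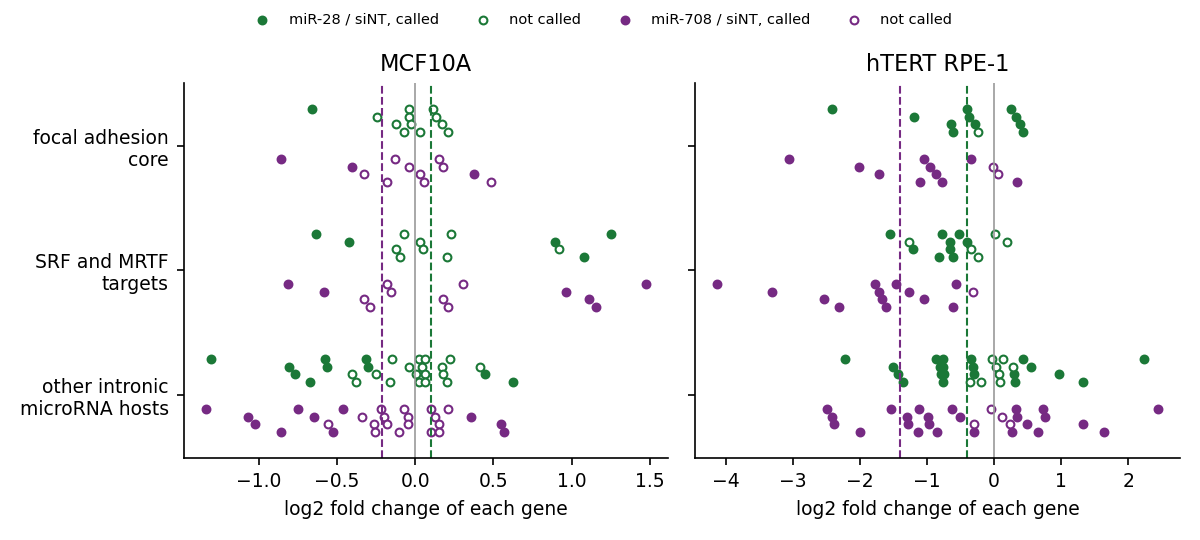
Log2 fold change against siNT (x axis, scaled apart in each panel) of each gene of 3 lists (y axis) in MCF10A left and hTERT RPE-1 right, green for miR-28 and purple for miR-708, filled where the adjusted p was under 0.05. Dashed lines mark LPP under the same mimic. In hTERT RPE-1 the purple SRF and MRTF targets lie on both sides of the LPP line at -1.40, and in MCF10A they spread on both sides of 0.

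Over all 18 libraries, the 5 genes whose pattern was most like that of LPP were CEP68, TTC3, PAWR, LIMK2 and BTBD7, of 10233 genes compared. Likeness was the root mean square difference of the log2 level from the siNT mean of the same line, which was 0.158 for CEP68 and 0.191 for BTBD7, beside a median of 0.694 over the genes compared. CEP68, a protein of the link between centrosomes, had log2 fold changes of -0.62 and -1.41 in hTERT RPE-1 and 0.15 and -0.18 in MCF10A, and like LPP it passed with miR-708 in hTERT RPE-1 and in neither comparison in MCF10A. In hTERT RPE-1 all 5 fell with both mimics, with log2 fold changes for miR-708 of -1.265 for TTC3, -1.383 for PAWR, -1.397 for LIMK2, the kinase of cofilin, and -1.187 for BTBD7. The 5 were chosen by likeness to LPP over these same libraries, so a fall with miR-708 there follows from the choice. Of all genes tested, 31.2% were lower with miR-708 and 23.5% with miR-28, and LPP itself did not pass with miR-28 (limma adjusted p 0.0519). In MCF10A, unlike LPP, TTC3 and BTBD7 also passed with miR-708 (-0.347 and -0.329, limma adjusted p 0.0198 and 0.0218), while PAWR and LIMK2 did not.

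**Figure D5:**
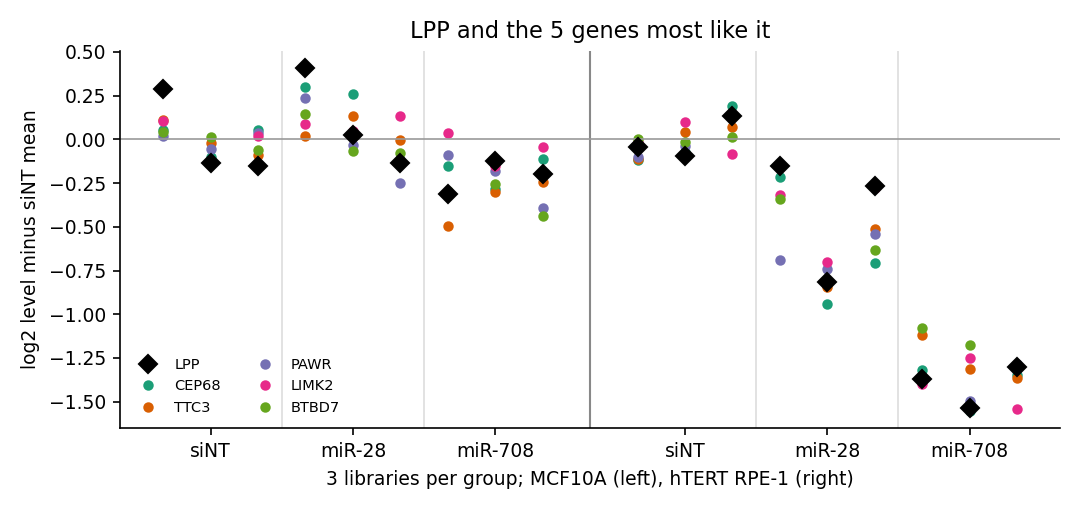
Log2 level minus the siNT mean of the same line (y axis) in each of the 18 libraries (x axis, 3 per group, MCF10A left and hTERT RPE-1 right) for LPP (black diamonds) and the 5 genes most like it (coloured circles). In hTERT RPE-1 all 6 genes are lowest in the miR-708 libraries, and LPP in replicate 1 of miR-28 is near its siNT level.

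Sequence classes place LPP among genes whose 3′ UTR holds no match to bases 2 to 7 of the seed. In hTERT RPE-1, the median log2 fold change with miR-708 was 0.094 over 8174 genes with no match, -0.119 over 2185 with only a match to bases 2 to 7, and -0.269 over 2387 with a longer match. LPP, at -1.402, lay low among the genes without a match, of which 4.6% were lower, and 2.7% were lower among the 262 with a 3′ UTR of at least 5000 nt. With miR-28 18.8% of the genes without a match were lower than LPP. In MCF10A 60.3% and 29.6% were lower with miR-28 and miR-708, which puts LPP in the body of that class.

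The check of the lines by marker genes was mixed. All 6 breast basal epithelial markers were listed in MCF10A, such as KRT5 at 42285 to 89713. Of these, 2 were also listed in hTERT RPE-1, TP63 at 5.49 to 32.8 and ITGB4 at 245 to 1034. In hTERT RPE-1 MITF was at 1070 to 2031 and the defining visual cycle gene RLBP1 at 1.47 to 15.3 (3 reads are worth 2.35 to 4.41 there), with no value for RPE65. Of 7 retinal pigment epithelial markers 5 were listed in each line, and by these tables, each normalized apart, some stood higher in MCF10A, where LRAT was at 626 to 1380 and BEST1 at 591 to 1209, against 1.47 to 8.63 and 153 to 249 in hTERT RPE-1. RPE65 was at 10 to 114 in MCF10A. PMEL was at 0.829 to 34.4 in MCF10A and at 1.16 to 544 in hTERT RPE-1, where siNT held 13.81, 9.121 and 544.4. Depth estimated from the spacing of low values was 19400000 to 31700000 reads in MCF10A and 23800000 to 40300000 in hTERT RPE-1. Scaling each library by its total instead raised the median of all genes by 0.319 for miR-708 in hTERT RPE-1, and the share of calls that were lower went from 50.3% to 28.1%. That share went from 52.9% to 33.8% for miR-28 and from 52.7% to 32.4% for miR-708 in MCF10A. LPP then stood at -1.08, still -1.403 from the median.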

How the data were processed

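PolyA+ RNA of MCF10A and hTERT RPE-1 cells was sequenced in 3 replicates per group (18 libraries). The authors trimmed adapters, aligned reads to hg38 with HISAT2 2.1.0 and estimated reads per gene over RefSeq transcripts by the E/M method of Partek. The deposited gene tables hold signal values, estimated read counts divided by a size factor per library, not whole counts, each line normalized apart. Further deposited tables hold the authors' own comparisons (ratios, p-values) and were not used.

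Genes that reached 10 in 3 or more libraries were tested (14726 in MCF10A, 14527 in hTERT RPE-1). log2(value + 1) was fitted per line with limma 3.58.1 in R 4.3.3, 3 group means with a mean trend, and p-values were adjusted by the Benjamini-Hochberg method. A fold change on the scale with a pseudocount of 1 understates the change of low genes. The difference between lines used both standard errors and Welch-Satterthwaite degrees of freedom. Exact permutation tests used scipy 1.17.1. Simulated tables with 200 changed genes gave 127 of them called in MCF10A and 157 in hTERT RPE-1, beside 5 and 12 unchanged genes. Far fewer genes were changed there than the comparisons with siNT called, and only by changes larger than those of LPP in MCF10A. The simulated yield therefore does not carry over to these comparisons.

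LPP and all gene lists were chosen with earlier results of these data known. Genes named were LPP, all members of the zyxin family, partner, focal adhesion and MIR-28 host lists, members of the SRF and other host lists called in all 4 comparisons with siNT, the 3 nearest tested genes on each side, LPP-AS2 and the 5 most similar genes with a mean value of at least 100 in each line. Values for members that did not pass are given for a few only. RLBP1, RPE65, BEST1, PMEL, LRAT, MITF, KRT5, ITGB4 and TP63 are line markers.

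Deviations of same-numbered libraries from their group means correlated at 0.11 to 0.30 for each mimic and siNT in MCF10A. For the mimics in hTERT RPE-1 the correlations were 0.13 to 0.28. For the other pairs of groups they were 0.02 to 0.18, so the ranges overlap, and no test was run on them. Intervals and depth cover these libraries only. Alternatives were the pseudocount, filter, scaling, trend, groups fitted, replicate block and leaving out each replicate. The stretches around the matches to bases 3 to 8 are not reported here.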

Additional observations from a re-analysis of the deposited data

Results flagged for a closer look

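Most results below passed a test, on the fold changes with Benjamini-Hochberg adjustment, for a difference between the lines in the response to a mimic. Such a difference was called for 39.8% of all genes tested in both lines with miR-708 and for 23.4% with miR-28. TRIP6 and PTK2 passed for neither mimic, LIMD1 did not for miR-708, and LPP-AS2 did not for miR-28. Differences are log2 fold changes in hTERT RPE-1 minus MCF10A. For miR-708, LPP differed by -1.188 and its antisense gene LPP-AS2 by -1.149, although LPP-AS2 passed the test in neither line. TENM4, host of MIR708, differed by 0.966, and the zyxin family genes ZYX by -1.434, AJUBA by -0.451, WTIP by -0.796 and FBLIM1 by -1.861. For miR-28, TENM4 differed by 1.170, ZYX by -0.583, AJUBA by -0.569, LIMD1 by -0.530, WTIP by -0.898 and FBLIM1 by -0.726, while the difference for LPP itself (-0.509) did not pass the test without the replicate block (adjusted p 0.0951) and passed with it (adjusted p 0.0297). AJUBA and FBLIM1 were lower than siNT in both lines, so their difference is one of size.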

How the results depend on the processing

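The fall of LPP with miR-708 in hTERT RPE-1 and its difference from MCF10A kept their direction and passed under all 9 settings other than leaving out a library (log2 fold change -1.402 to -1.082, difference -1.215 to -1.012) and without each replicate in turn (-1.452 to -1.333, difference -1.332 to -1.113). For miR-28 in hTERT RPE-1, LPP passed with the replicate block (-0.411, limma adjusted p 0.0166). Deviations of same-numbered libraries there correlated at 0.02 to 0.04 for miR-28 and siNT and at 0.13 to 0.28 for the mimics. LPP ranged from -0.541 to -0.208 when 1 library was left out, passing without replicate 1 of the mimic. The difference between lines for miR-28 passed with the replicate block (-0.509, adjusted p 0.0297) and without siNT replicate 7 of MCF10A or replicate 1 of the mimic in hTERT RPE-1 (range -0.653 to -0.307). In MCF10A LPP for miR-28 ranged from -0.057 to 0.242 and was below 0 without replicate 7 of the mimic. The replicate block changed no other LPP call. Of 65 list genes tested in MCF10A, 22 were called by limma for miR-28, where 22.7% of all genes were. Without 1 library 13 to 25 were called (13 without siNT replicate 7, and 14 without siNT replicate 9 or without replicate 8 or 9 of the mimic). Between the mimics 0 of the list genes were called by limma, where 1.55% of all genes were, and 9 had an unadjusted p under 0.05. With the replicate block 3 were called, and without 1 library 0 to 1. In MCF10A, where the main values were near 0, ZYX for miR-28 was 0.102 with library size and 0.060 with upper quartile scaling (-0.044 to 0.031 without 1 library) and for miR-708 -0.018 to 0.123. TRIP6 for miR-28 was 0.084 and 0.042 under these scalings (-0.111 to 0.073), and -0.020 to 0.182 in hTERT RPE-1. TENM4 for miR-708 in MCF10A was 0.062 with library size scaling (-0.296 to 0.127). The causes were not tested. With 3 libraries a group, the intervals limit what can be said of LPP in MCF10A.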

Other observations

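Other genes that carry a microRNA in an intron went both ways. Of 29 tested in hTERT RPE-1, 10 rose and 15 fell with miR-708, and of 28 in MCF10A 3 rose and 8 fell. Of all genes tested, 30.9% were higher and 31.2% lower in the former comparison, and 15.5% and 17.3% in the latter. With miR-28, 7 rose and 14 fell in hTERT RPE-1, where 23.3% of all genes were higher and 23.5% lower. In MCF10A 2 rose and 8 fell with miR-28, beside 10.7% and 12.0% of all genes. The members named next are those called in all 4 comparisons with siNT. The share of all genes called in all 4 was not counted. PANK1, which starts coenzyme A synthesis and hosts miR-107, rose in all 4 comparisons with siNT. It rose by 0.627 and 0.548 in MCF10A and by 1.323 and 1.319 in hTERT RPE-1 (miR-28, then miR-708). PANK2 also rose in all 4, by 0.447 and 0.568 in MCF10A and by 0.423 and 0.487 in hTERT RPE-1. CTDSPL, SREBF1, MEST and DALRD3 fell in all 4, DALRD3 to 21.1% and 18.5% of siNT in hTERT RPE-1. PPARGC1B, a coactivator of mitochondrial gene expression, fell in MCF10A (-0.578 and -0.749) and rose in hTERT RPE-1 (2.229 and 2.437) from 39.58 in siNT.

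The tested neighbours of LPP did not share a direction. Of all genes tested in MCF10A, 10.7% were higher and 12.0% lower with miR-28, and 15.5% and 17.3% with miR-708. In hTERT RPE-1 the shares were 23.3% and 23.5% with miR-28, and 30.9% and 31.2% with miR-708. P3H2, a collagen prolyl hydroxylase gene 1066.1 kb downstream, fell in all 4 comparisons to between 38.7% and 50.9% of siNT. TP63, 740.7 kb downstream, fell with both mimics in MCF10A, to 48.1% and 41.9%, and with miR-708 in hTERT RPE-1, from 25.25 ± 7.599 to 10.74 ± 4.946 (42.5%), the comparison in which LPP fell. RTP4, 781.2 kb upstream, rose with miR-708 in both lines, from 6.876 ± 2.498 to 578.3 ± 89.33 in hTERT RPE-1. With miR-28 it also rose in hTERT RPE-1, unevenly, to 14.18, 632.4 and 337.8 in replicates 1, 2 and 3. BCL6, the nearest upstream, rose with miR-28 in hTERT RPE-1 by 0.389, and RPL39L rose there with miR-708 by 0.727. TPRG1, the nearest downstream at 56.5 kb, passed in none of the 4, at 53.46 to 117.8 in MCF10A and 6.658 to 26.18 in hTERT RPE-1.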
